A study of Mus musculus with 8 samples.

Results

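The 10 genes described here are members of the BCL2 family, and their N6-methyladenosine (m6A) peaks were followed in mouse embryonic fibroblasts (MEFs) with and without nutrient starvation. The members were given by name, as Bmf and the other BH3-only genes Bcl2l11, Bbc3 and Bid, the prosurvival genes Bcl2, Bcl2l1, Bcl2l2 and Mcl1, and the effectors Bax and Bak1. Every peak that the deposited lists assign to one of these genes was taken, whatever its height. This gave 49 of 38705 peaks, and each of the 10 members had a peak in at least 1 library, out of 9779 genes with a peak.

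The MEFs were wild type, of the C57BL/6 strain, derived from embryos of 13.5 days of gestation and used at passages 5 to 6. Control cells were left untreated in full medium, and starved cells spent 2 h in nutrient-deprived medium. In MeRIP-seq, mRNA fragments are pulled down with an antibody against m6A (IP) and sequenced along with input RNA that did not go through the pull-down. Each group had 2 IP and 2 input libraries, and a peak list per IP library was analysed here. The study names the replicates biological, but neither it nor the labels say whether they came from separate embryos or cultures, so their spread may be in part technical.

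BCL2 family proteins decide at the outer mitochondrial membrane whether a cell enters apoptosis. Prosurvival members hold the effectors Bax and Bak1 in check, BH3-only members bind the prosurvival proteins or the effectors in response to stress, and freed effectors open pores that release cytochrome c. m6A is placed on mRNA by a methyltransferase complex, often around the sequence GGAC and often near the stop codon or in the 3′ UTR, and reader proteins that bind it alter the stability and translation of the transcript.

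Bmf had no peak in either control library and peaks in both starved libraries, all in its 3′ UTR. Bbc3, Bcl2l11 and Bcl2l1 each held 1 region of that pattern as well, and Mcl1 and Bcl2l2 each held 1 region of the reverse pattern. The sequences below are shown because they lie in those regions, apart from the second peak of Bmf in starved replicate 2, which is shown because it was the highest of Bmf and was called in that library alone. Each is the GGAC nearest to the centre of the peak with 10 nt on either side. Only this GGAC is in capitals, and the Mcl1 sequence ends in another that is left in lower case. All are read 5′ to 3′ on the transcribed strand of GENCODE M21 transcripts and placed on mm10 (GRCm38).
Bmf 3′ UTR, starved replicate 1, chr2:118532180-118532203, minus strand: taacccaccaGGACcctgtctggg
Bmf 3′ UTR, starved replicate 2, chr2:118531608-118531631, minus strand: gaagaagctaGGACtgaggctttg
Bmf 3′ UTR, second peak of starved replicate 2, chr2:118530821-118530844, minus strand: caaggagaggGGACccaagtaatg
Bbc3 5′ UTR, both starved replicates, chr7:16309692-16309715, plus strand: gcggtgatccGGACacgaagactc
Bcl2l11 alternative 3′ end, starved replicate 1, chr2:128130809-128130832, plus strand: cagaataagaGGACttagccagat
Bcl2l1 3′ UTR, starved replicate 1, chr2:152781254-152781277, minus strand: cagggtcaagGGACtctggcctca
Bcl2l1 3′ UTR, starved replicate 2, chr2:152781818-152781841, minus strand: cttgttggtgGGACcctaattacc
Mcl1 coding exon, both control replicates, chr3:95659961-95659984, plus strand: gttcttgtaaGGACgaaacgggac
Bcl2l2 3′ UTR, control replicate 2, chr14:54885832-54885855, plus strand: gtagctccaaGGACggtgagctta

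The peak lists held 10103 and 9871 peaks in control replicates 1 and 2, and 9757 and 8974 in starved replicates 1 and 2. The false discovery rates deposited with the member peaks ran from 7.52% to 74.9%. No reads or depths were analysed here, so neither a counting error nor a limit of detection can be given, and the absence of a peak does not show the absence of m6A. Each peak carries a deposited fold enrichment, its IP signal relative to the local input. Its median over all peaks was 12.2 ± 0.0424 (SD, n = 2) in control and 14.6 ± 0.0778 (SD, n = 2) in starved libraries, a shift of 0.26 on the log2 scale. Input values per gene were not analysed here, so more m6A per transcript and more transcript in the cell cannot be told apart, nor can a change in every cell from a change in the share of cells. Of 10 fibroblast marker genes 8 had a peak, and Pdgfra, Pdgfrb and Twist1 had one in all 4 libraries, while Col1a1 and Vim had none. Of 9 markers of other cells 4 had a peak and Ptprc, Pecam1, Epcam, Cdh1 and Nanog had none, although Sox2 had one in all 4 libraries.

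Bmf encodes a BH3-only protein that is tethered to the myosin V motor through a dynein light chain and is freed when cells detach or their cytoskeleton is disturbed. Starved replicate 1 had 1 Bmf peak, at chr2:118531858-118532544, with a fold enrichment of 12.1. Starved replicate 2 had a peak at chr2:118531386-118532007 with a fold enrichment of 32.5 and another at chr2:118530544-118531052 with 51.4. Neither control library had a Bmf peak at any fold, so the groups did not overlap in the number of Bmf peaks (0 and 0 against 1 and 2). The difference of 1.5 peaks gave a two-sided exact permutation p of 0.333, which is the smallest p that 2 libraries against 2 can give. The study had already listed BMF among autophagy genes with raised m6A and raised binding of the m6A reader YTHDF3 after starvation. That list rested in part on these MeRIP-seq data, so a gain in Bmf was known beforehand and the test adds no independent support. By PCR after pull-down of YTHDF3, the study also found more BMF transcript bound after starvation, which depended on the methyltransferase METTL3. It saw no obvious matching change of BMF protein in cells with YTHDF3 silenced or overexpressed.

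The peaks of the 2 starved libraries marked neighbouring rather than identical stretches of the Bmf 3′ UTR. On the spliced transcript ENSMUST00000090219.12, whose 3′ UTR runs over 3801 nt, the peak of replicate 1 covered nt 14 to 700 after the stop codon. In replicate 2 the peaks covered nt 551 to 1172 and nt 1506 to 2014. The stretch common to both libraries, chr2:118531858-118532007, was 150 bp long, or 24.1% of the shorter peak, and held no GGAC. The peaks themselves held 4, 3 and 3 GGAC sequences, and the nearest one lay 10, 77 and 34 nt from the centre of its peak, in the order of the 3 Bmf sequences above. If libraries are held to share a region only when the overlap covers at least 50% of the shorter peak, the Bmf region is no longer shared.

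The Bmf peaks were not among the weakest of their lists. The peak of replicate 1 stood at the 43.2 percentile of fold enrichment among all peaks of its library, and the peaks of replicate 2 at the 75.1 and 85.6 percentiles. Both peaks of replicate 2 had a p-value score of 3100, the limit that many peaks reach, and a false discovery rate of 7.52%, close to the lowest of that list, 7.51%. The peak of replicate 1 scored 1855 at a rate of 13.0%. The 3′ UTR of Bmf, of 3801 nt, held 21 GGAC sequences, or 5.52 per kb. This was close to Bak1 with 5.35 per kb and below Bbc3 with 11.3 per kb. The other members apart from Bax had 2.97 to 4.41 per kb. The Bax transcript used here has no annotated 3′ UTR, since its coding sequence of 517 nt runs to its last base. That length is not a whole number of codons, so the annotated coding sequence is incomplete. No density over all 3′ UTRs is given for comparison.

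**Figure D1:**
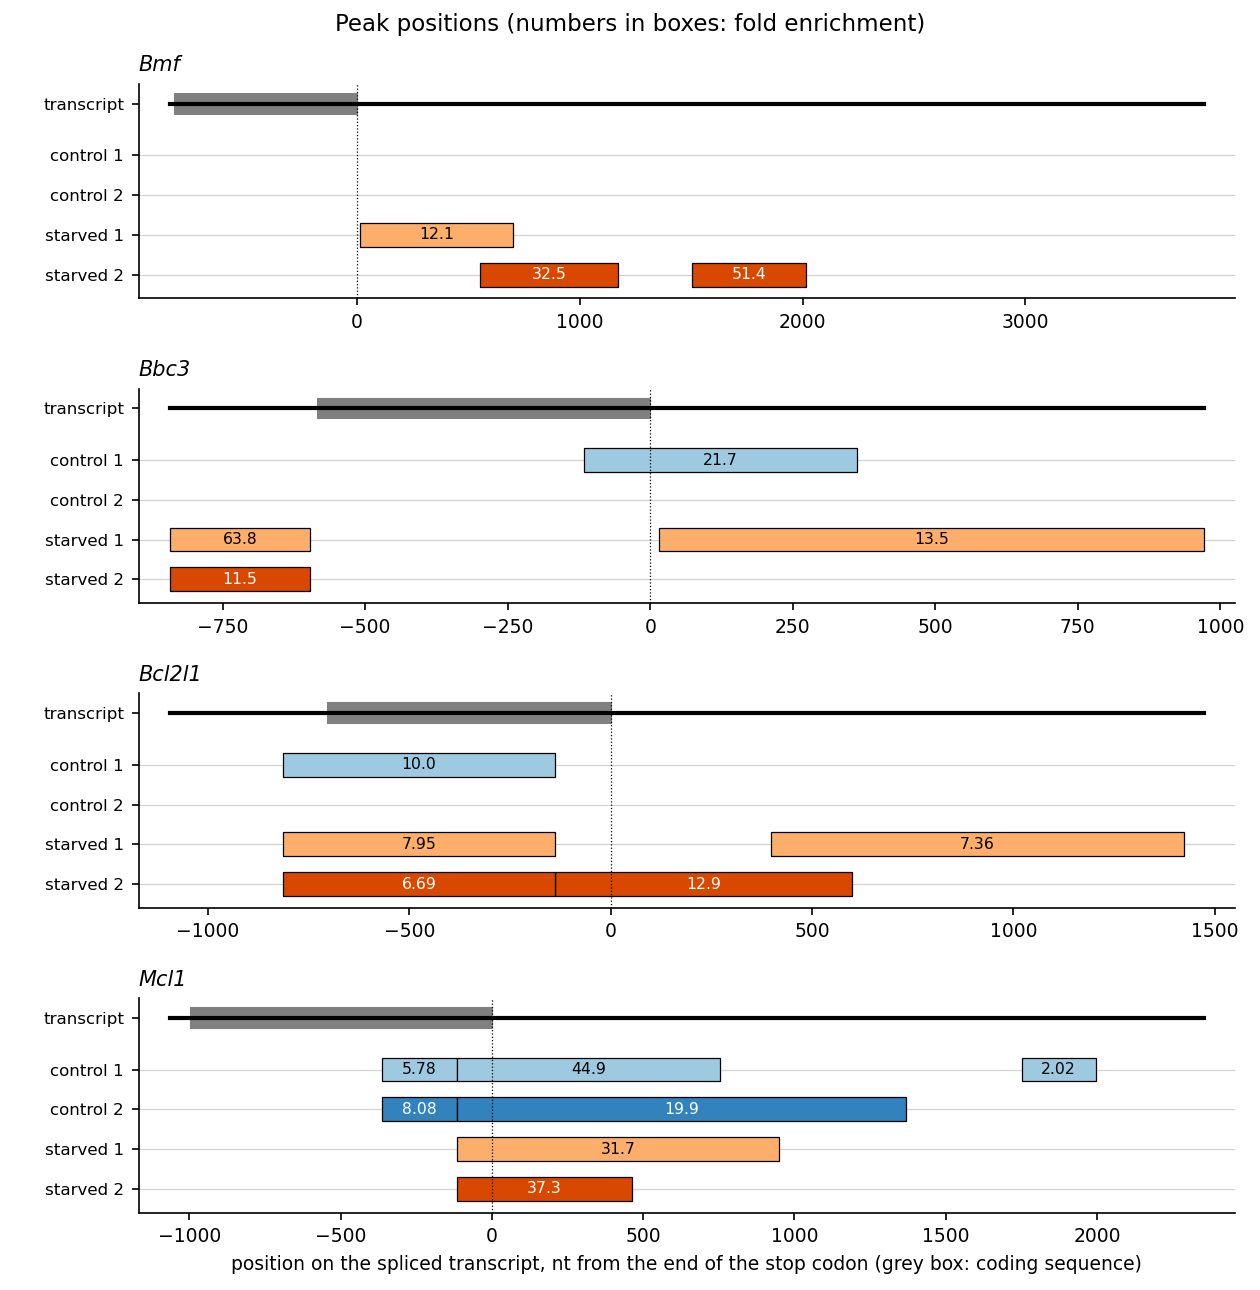
Peaks of Bmf, Bbc3, Bcl2l1 and Mcl1 along the spliced transcript, in nt from the end of the stop codon (horizontal axis), with 1 line per library and the fold enrichment written in each peak. Bmf peaks lie only in the starved libraries and only after the stop codon, the Bbc3 5′ UTR peaks of the starved libraries cover the same exon, and the coding peaks of Mcl1 in the control libraries and of Bcl2l1 in starved replicate 2 end where the next peak begins.

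Over all members, the 49 peaks merged into 29 regions when peaks that shared at least 1 bp were joined. In 4 of the 29 regions, peaks were called in each starved library but in no control library, beside a background of 3.2% of all 21168 regions. The 4 regions were 1 each in Bmf, Bbc3, Bcl2l11 and Bcl2l1. The reverse pattern was found in 2 of the 29 regions, in Mcl1 and Bcl2l2, beside a background of 4.15%. With an overlap of at least 50% of the shorter peak, the first count fell to 1 of 32 regions. This was the Bbc3 region, whose peaks cover a whole exon. The reverse count remained at 2. The shares of all 22151 regions under this rule were 3.10% and 4.01%. At the level of genes, Bmf was the 1 member of 10 with peaks in both starved and no control library (background 3.19%), and Bax the 1 member with the reverse (background 4.56%).

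Bbc3 encodes Puma, a BH3-only protein induced by p53 and able to bind all prosurvival members. Its region of the starved pattern, chr7:16309583-16309861, lies at the first exon, in the 5′ UTR, and the peak was given the same start and end in both libraries. Its fold enrichment was 63.8 in starved replicate 1 and 11.5 in starved replicate 2, and both control libraries lacked it. These limits are those of a whole RefSeq exon of Bbc3, and since the peaks were limited to exons, the equal start and end do not show how closely the signal of the 2 libraries coincided. The heights differed several-fold, and the deposited false discovery rates were 10.1% in starved replicate 1 and 33.8% in starved replicate 2. Only 1 of the 3 coding transcripts of Bbc3 has an exon at the centre of this peak. A second Bbc3 region, at the stop codon and in the 3′ UTR, had peaks in control replicate 1 with a fold enrichment of 21.7 and in starved replicate 1 with 13.5. It was thus seen in 1 library of each group.

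Bcl2l11 encodes Bim, a BH3-only protein that can engage every prosurvival member. It had 2 peaks in each of the 4 libraries, but in 6 different regions. The region of the starved pattern, chr2:128130374-128131015, had a fold enrichment of 24.9 in starved replicate 1 and 7.58 in starved replicate 2. It lies in the 3′ UTR of a short transcript, ENSMUST00000089634.11, and within an intron of the other coding transcripts, since 1 of 5 has an exon at its centre. The peaks shared 108 bp, 29.2% of the shorter one. Their deposited false discovery rates were 18.0% in starved replicate 1 and 55.9% in starved replicate 2. The GGAC shown above lies in the peak of replicate 1, and the peak of replicate 2 held none. At the stop codon of the long transcript, peaks were called in control replicate 1 at a fold enrichment of 49.9 and in starved replicate 1 at 30.3. The 4 remaining regions were each called in a single library, with fold enrichments of 13.4 in control replicate 1, 29.7 and 17.1 in control replicate 2, and 3.83 in starved replicate 2. The last was the weakest Bcl2l11 peak, with a false discovery rate of 74.9%.

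Bid encodes a BH3-only protein that is cleaved by the caspase of the death receptors and so carries their signal to mitochondria. It had 1 peak in each library. The fold enrichments were 5.13 and 9.91 in control MEFs against 18.6 and 50.0 in starved MEFs, so the groups did not overlap. Of all 2856 genes with a peak in each of the 4 libraries, 23.4% had their highest peak in both starved libraries above that of both control libraries. Bid and Bcl2 did so among the 4 members with a peak in every library, and Bcl2l11 and Mcl1 did not. The peaks were not at 1 place, however. Those of control replicate 1 and starved replicate 1 coincided in the 3′ UTR over 533 bp, that of control replicate 2 lay closer to the stop codon, and that of starved replicate 2 covered a coding exon, chr6:120900156-120900366, from end to end. Within the 1 shared Bid region the values were thus 5.13 in control and 18.6 in starved MEFs, with 1 library each and no test.

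Together, the 3 other BH3-only genes had 4 and 3 peaks in control libraries against 5 and 4 in starved ones, a difference of 1.0 (exact permutation p = 0.667). Bmf differed from them in that each of the 3 had a peak in at least 1 control library. Peaks of Bcl2l11 and Bid were called in all 4 libraries, and those of Bbc3 in 3. Of all 9779 genes with a peak, 29.2% had one in all 4 libraries.

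**Figure D2:**
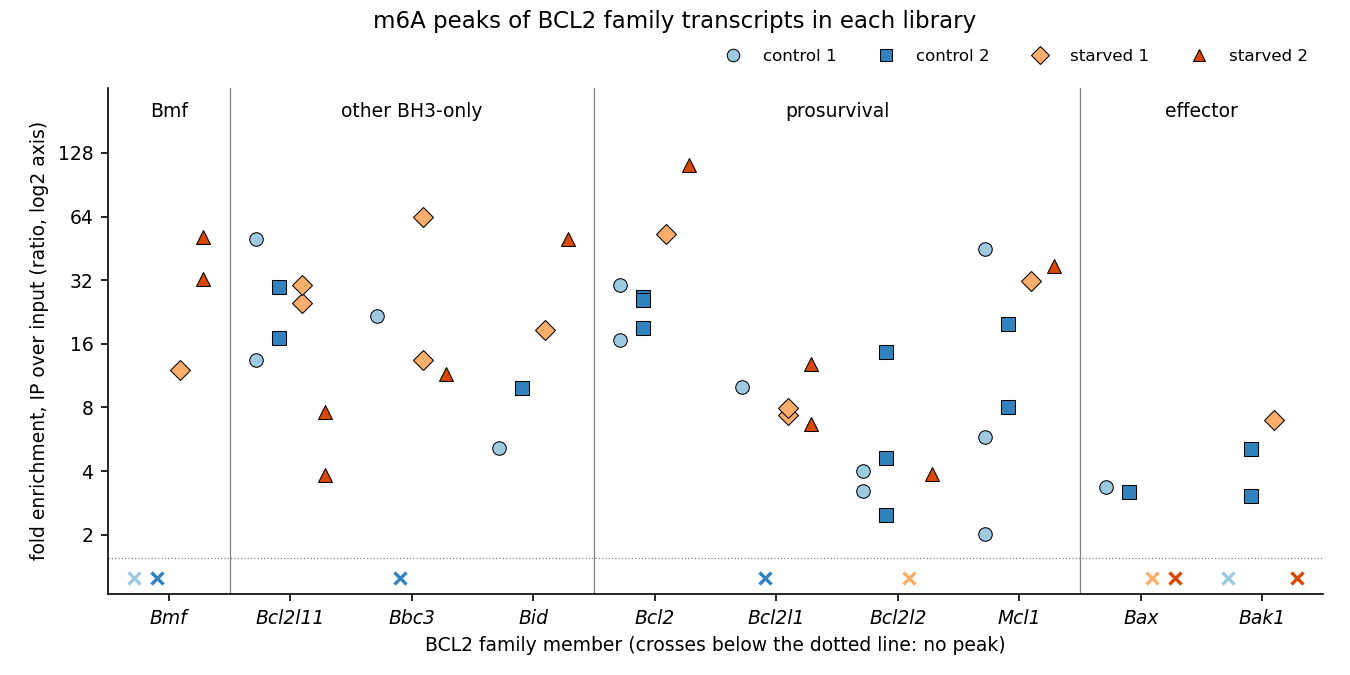
Fold enrichment of each of the 49 peaks (ratio of IP to input, log2 axis) by gene, with 1 symbol and colour per library and a cross where a library had no peak of that gene. Bmf has crosses in both control libraries and Bax in both starved libraries, while Bcl2l11, Bid, Bcl2 and Mcl1 have a peak in every library. Of all genes with a peak, 29.2% had one in every library.

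The prosurvival genes had fewer peaks in starved than in control libraries. Each control library had 8 peaks, against 4 and 5 in the starved ones, a difference of -3.5 that gave the smallest possible exact permutation p of 0.333. The groups did not overlap, but neither did the lists of all peaks, with 10103 and 9871 in control against 9757 and 8974 in starved libraries. When each list was cut to its 8974 highest-scoring peaks, the counts were 6 and 8 in control against 4 and 5 in starved cells, which still did not overlap. The difference was spread over Bcl2, with 2 and 3 peaks in control and 1 in each starved library, Bcl2l2, with 2 and 3 against 0 and 1, and Mcl1, with 3 and 2 against 1 in each starved library. Bcl2l1 went the other way, with 1 and 0 peaks in control and 2 in each starved library. At a fold enrichment of at least 4, the prosurvival counts were 6 and 7 in control against 4 and 4 in starved libraries. The 46 other apoptosis genes described below also had fewer peaks in starved libraries, 37 and 37 against 46 and 43. How often a set of genes separates in this way was not tested.

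Mcl1 encodes a prosurvival protein with a short half-life, which makes its level sensitive to translation. It held the single member region with a peak in all 4 libraries, chr3:95660707-95662192, which starts in the coding part of the last exon and runs into the 3′ UTR. A region with peaks in all 4 libraries was found for 10.7% of all regions. Fold enrichment there was 44.9 and 19.9 in control cells, and in starved cells it was 31.7 and 37.3. The starved values lay between the control values, and the difference of 0.20 on the log2 scale (control 4.90 ± 0.83, starved 5.10 ± 0.17, SD, n = 2 each) gave an exact permutation p of 1.0. Relative to the median of all peaks of each library the difference turned to -0.06, so no direction can be given. Among all regions with a peak in the 4 libraries, both starved values were above both control values in 22.9% and below in 18.0%, and after the library medians were subtracted these shares were 16.9% and 25.1%.

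The second Mcl1 region, chr3:95659761-95660008, covered 1 coding exon from end to end in both control libraries, with a fold enrichment of 5.78 in replicate 1 and 8.08 in replicate 2, and no peak was called there in starved cells. On the spliced transcript ENSMUST00000037947.14 this peak ends at position -117 from the end of the stop codon, and the next begins at -116. Both peaks thus meet at an exon junction, but peaks were limited to exons, so this does not show 1 continuous signal. The exon peak was lower than the next, at 5.78 against 44.9 in control replicate 1 and 8.08 against 19.9 in control replicate 2. It stood at the 20.8 and 33.5 percentiles of these lists. The remaining Mcl1 peak, in control replicate 1 alone, had a fold enrichment of 2.02, the lowest of the 49 peaks.

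Bcl2 encodes the founding prosurvival member. Its coding sequence carried the highest fold enrichment of any member, 112 in starved replicate 2, where control replicate 2 had 18.9 at the same place and the other libraries had no peak. In the 5′ UTR, peaks were called in both control libraries, at 30.2 and 25.9, and in starved replicate 1 at 53.0. These 3 peaks had 34 bp in common, 9.66% of the shortest. The highest Bcl2 peak of each library was 30.2 and 26.6 in control against 53.0 and 112 in starved cells, so the groups did not overlap, beside the background of 23.4% of genes. The starved maxima were at different places in the transcript. Peaks in the 3′ UTR of Bcl2 were called once in each control library, at 16.7 and 26.6 and without overlap, and in no starved library. These 2 peaks also overlap exons of D630008O14Rik on the opposite strand. The library kit keeps strand, but whether the peak calling used it is not given in the sources used here.

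Bcl2l1 encodes Bcl-xL, which keeps Bax and Bak1 inactive. Its coding region had peaks in 3 libraries that shared an end, with fold enrichments of 10.0 in control replicate 1, 7.95 in starved replicate 1 and 6.69 in starved replicate 2. Control replicate 2 had no Bcl2l1 peak. The region of the starved pattern, chr2:152780722-152782282, spans the stop codon and most of the 3′ UTR, with a fold enrichment of 7.36 in replicate 1 and 12.9 in replicate 2. The peaks shared 202 bp, 27.4% of the shorter one. In starved replicate 2 this peak adjoins the coding peak at an exon junction, as in Mcl1, whereas in starved replicate 1 they are apart.

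Bcl2l2 encodes Bcl-w, a prosurvival protein. All 6 of its peaks lay in the 3′ UTR. The region seen in both control libraries and in no starved library, chr14:54885623-54886023, had low fold enrichments of 3.24 and 4.60, which stood at the 3.35 and 11.6 percentiles of their lists. The stretch common to both peaks, chr14:54885662-54885822, held no GGAC, and the Bcl2l2 sequence shown above lies outside it. Further along, a region was called in 3 libraries, at 4.02 and 14.7 in the control libraries and at 3.87 in starved replicate 2. Starved replicate 1 had no Bcl2l2 peak.

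Bax and Bak1 encode the effectors that form the pores, and their peaks were few and low. Bax had 1 peak in each control library, with fold enrichments of 3.36 and 3.20, and none in starved libraries. The 2 Bax peaks did not overlap, and both have their centre in an exon of only 1 of 5 coding transcripts, ENSMUST00000210392.1, and in an intron of the rest. The first also overlaps an exon of Gm45808 on the same strand. Bak1 had 2 peaks in control replicate 2, at 5.11 and 3.04, and 1 in starved replicate 1, at 6.96, in the same part of the 3′ UTR as the first. The effectors had 1 and 3 peaks in control against 1 and 0 in starved cells, a difference of -1.5 (exact permutation p = 0.667), and at a fold enrichment of at least 4 the difference was 0.0. The highest of the 5 effector peaks was 6.96, whereas the highest peak was 12.9 in Bcl2l1, 14.7 in Bcl2l2 and between 44.9 and 112 in each of the other members.

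**Figure D3:**
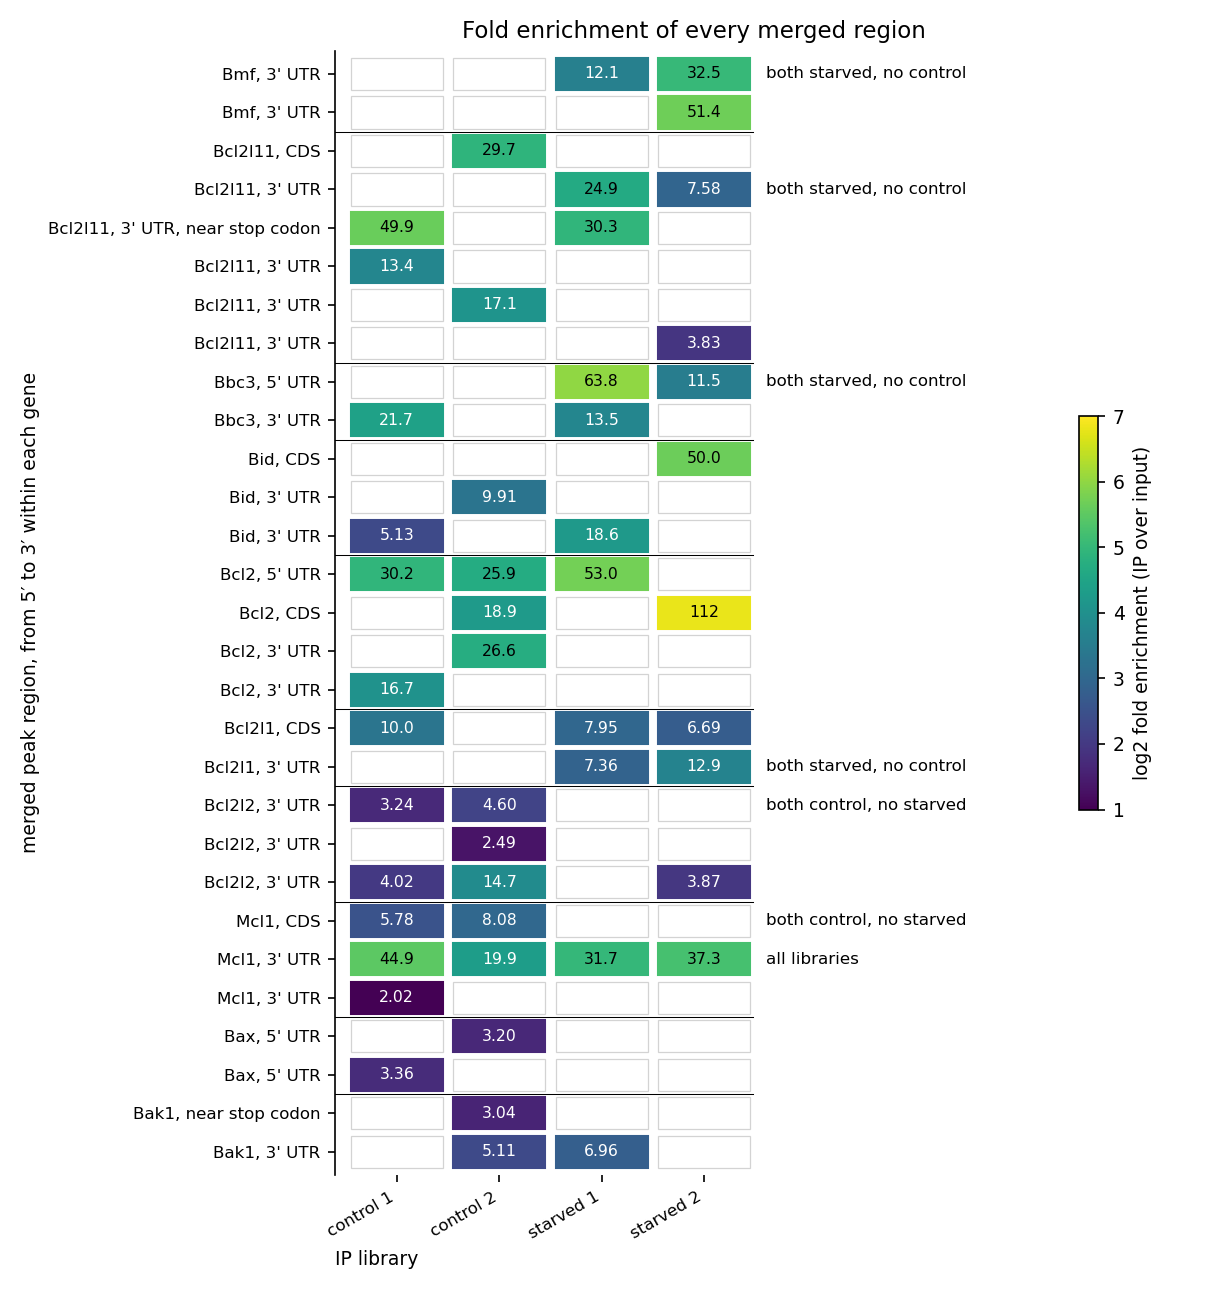
Fold enrichment in each of the 29 merged regions (rows, from 5′ to 3′ within a gene, with the part of the transcript at the peak centre) and 4 libraries (columns), coloured on the log2 scale, with an empty box where no peak was called. The Mcl1 region at the 3′ UTR is filled in all 4 columns, 4 rows are filled in both starved columns alone and 2 in both control columns alone.

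Of the 29 regions 14, or 48.3%, were called in 1 library only, near the 56.2% of all regions, 11 in 2 libraries, 3 in 3 and 1 in 4. In 4 of the 15 regions called in several libraries, the part common to all of their peaks was under 50% of the shortest peak, and these were the regions of Bmf, Bcl2l11, Bcl2l1 and the 5′ UTR of Bcl2 described above. Of the member peaks 38.8% began or ended exactly at a GENCODE exon boundary, against 48.2% of all peaks.

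Over all members, the number of peaks was 13 and 14 in control and 11 in each starved library, a difference of -2.5 with the smallest possible exact permutation p of 0.333. The lists of all peaks were also shorter in starved libraries, without overlap of the groups. With lists of equal length the counts were 11 and 13 against 11 and 11, and at a fold enrichment of at least 4 they were 10 and 11 against 11 and 9, so the groups then overlapped and the difference was -1.0 and -0.5 (exact permutation p = 1.0 for both). The number of members with a peak was 8 and 7 in control and 8 in each starved library (difference 0.5, p = 1.0 in the same exact test). The median log2 fold enrichment of member peaks was 3.32 and 3.59 in control against 4.21 and 3.69 in starved cells. Its difference of 0.50 (exact permutation p = 0.333) was 0.24 after the median of all peaks of the library was subtracted (exact permutation p = 0.667) and 0.14 with lists of equal length (exact permutation p = 1.0), and the groups overlapped in both.

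**Figure D4:**
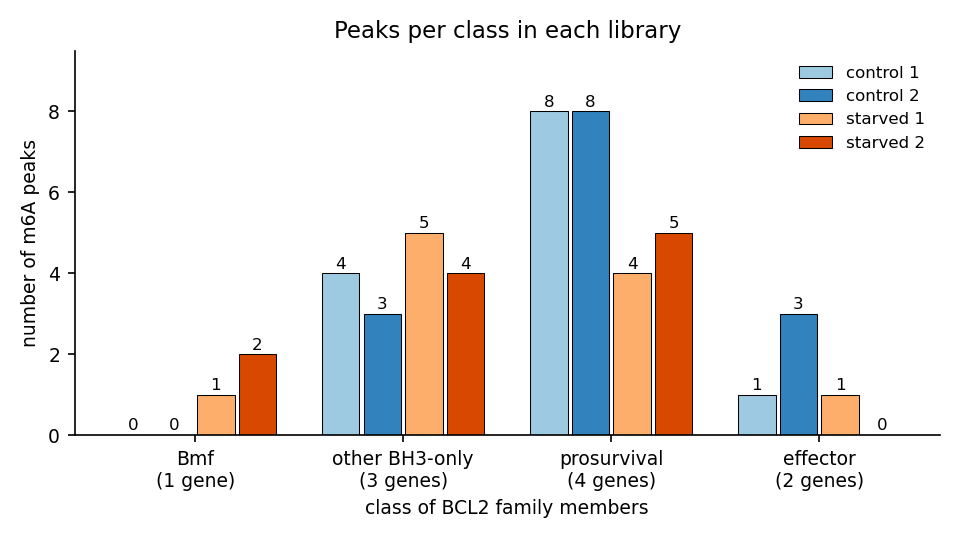
Number of m6A peaks (vertical axis) of Bmf, the other BH3-only genes, the prosurvival genes and the effectors in each library (bars). Bmf has 0 peaks in both control libraries, and the prosurvival genes have 8 in both control libraries against 4 and 5 in the starved ones.

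Along the transcript, member peaks lay mainly in the 3′ UTR. By peak centre, 31 of 49 peaks (63.3%) were there, against 34.4% of all peaks, and 2 (4.08%) were within 100 nt of the stop codon, against 11.7%. The coding sequence held 9 (18.4%, against 42.6% of all peaks) and the 5′ UTR 7 (14.3%, against 4.61%). The shares of all peaks count the 6.68% that could not be placed on a coding transcript, whereas all 49 member peaks were placed. The 3′ UTR peaks came from 9 of the 10 members and were 16 in control and 15 in starved libraries. The 7 peaks in the 5′ UTR were those of Bcl2, Bbc3 and Bax. Those of Bax were placed on the only 1 of 5 coding transcripts with an exon there, whose annotated coding sequence is incomplete. The shares above are of peaks and not of genes, with several peaks per transcript, and are given as a description.

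GGAC stood within the central 200 nt of 41 of the 49 member peaks (83.7%), against 63.7% of all placed peaks, searched on the transcribed strand only. In the 4 libraries the share was 76.9% and 92.9% in control cells and 81.8% in each starved library, against 62.1% to 64.7% of all peaks. In a window of 100 nt the shares of the 4 libraries were 46.2%, 42.9%, 63.6% and 36.4%, against 40.2% to 42.1% of all peaks, and in starved replicate 2 the member share then fell below that of all peaks. Both shared Bid peaks and the exon peak of Bid held no GGAC at all. Nor did a 3′ UTR peak of Bcl2 and one of Bcl2l2 in control replicate 1, one of Bcl2l2 in control replicate 2, and one of Bcl2l11 in starved replicate 2. No GGAC stood in the stretch common to the starved peaks of Bmf or of Bcl2l11. The same held for the stretch common to the Bcl2l2 peaks of the control pattern and to the 5′ UTR peaks of Bcl2.

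Among 46 other genes of apoptosis, 30 had a peak in some library. They had 46 and 43 peaks in control and 37 in each starved library, where the lists of all peaks were shorter as well. Of their 83 regions, 2 showed peaks in both starved libraries alone (background 3.2%) and 5 in both control libraries alone (background 4.15%). The first were in Bcl2l13, a mitochondrial BCL2 relative, with fold enrichments of 4.39 and 10.9, and in Fadd, the adaptor of the death receptors, with 13.7 and 26.9. With an overlap of at least 50% of the shorter peak neither was shared by both starved libraries.

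The list of other apoptosis genes included 8 regulators and partners by choice, so a link to the members was set beforehand and is no result. The regions seen in control libraries alone included 2 of these 8 genes, whose products act on members described above. Dynll2, the dynein light chain that binds Bmf, had fold enrichments of 2.98 and 15.1 there, while another Dynll2 region was called at 6.22 in control replicate 1 and at 17.8 and 16.8 in the starved libraries. Huwe1, a ubiquitin ligase of Mcl1, had 8.12 and 9.99. The others were in the death receptor gene Tnfrsf10b (2.45 and 5.86), in Ripk1, a kinase of the receptor complex (5.08 and 54.1), and in Birc6, an inhibitor of apoptosis (4.04 and 6.12). Of the 12 regions with peaks in all 4 libraries, both starved values were higher in 1, in the 3′ UTR of Cflar, an inhibitor of the death receptor caspase, with 7.82 and 5.08 in control against 21.9 and 30.7 in starved cells. They were lower in 1, in Ripk1, with 14.4 and 13.9 against 12.9 and 13.5, and after subtraction of the library medians also in a Huwe1 region with 52.2 and 87.8 against 11.8 and 61.8. These counts, 1 of 12 in either direction, stand beside the backgrounds of 22.9% and 18.0%.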

How the data were processed

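MeRIP-seq libraries of control and starved MEFs were analysed, 2 per group, as labelled in the titles; input libraries were used only by the authors, as the reference of their peaks. Per the labels and the study's methods, polyadenylated RNA was fragmented and pulled down with an m6A antibody, and strand-specific libraries were aligned by the authors to mm10 with HISAT2 2.0.4, per the submitters' processing notes. Peaks were called by the authors with MACS2 for each IP library against input and were limited to exons of mRNAs. Fold enrichment is deposited as a ratio that the authors computed for each peak, of IP signal over local input. The deposited score is minus 10 times log10 of the p-value, from 50.01 upwards, and largely limited at 3100 (highest 3233). The authors give the false discovery rate in percent. A deposited table of the authors' own differential sites, with fold changes, p-values and coordinates, was not used. No column of per-sample values was left unmapped (0). No count or depth was analysed here, so precision is known only from the spread of the libraries.

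Members and gene lists were chosen with earlier results of these data known. Named were all 10 members with every peak and, of 46 other apoptosis genes, those with a region called in both libraries of 1 group alone, or in all 4 with groups that did not overlap. Starts were counted from 1. Peaks sharing at least 1 bp were merged over the 4 libraries, and each peak was placed by its centre on the longest GENCODE M21 coding transcript of its gene with an exon there. Library values were compared between groups with a two-sided exact permutation test, whose smallest p of 0.333 cannot reach 0.05. Peaks are not replicates, so medians were taken per library. Alternatives were equal list lengths (8974 peaks), fold at least 4, score at least 100, assignment by exon overlap, other overlap and pattern rules, library medians subtracted, other windows, leaving out each library, and a replicate block. Merging, patterns and placement were tested on simulated data, and 9 of 9 quantities were recovered. Python 3.11.15, numpy 2.4.6, pandas 2.3.3, pysam 0.24.0 and matplotlib 3.10.9 were used.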

Additional observations from a re-analysis of the deposited data

How the results depend on the processing

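No alternative reversed the sign of a difference in member peaks, members with a peak, median fold enrichment or peaks per class, but several changed its size. The difference of -2.5 member peaks became -1.0 with equal list lengths and -0.5 at a fold of at least 4 (-2.0 to -3.0 without 1 library). The median log2 difference of 0.50 became 0.14 with equal list lengths, 0.24 after library medians were subtracted and 1.02 at a score of at least 100, and was 0.23 without starved replicate 1, 0.36 without control replicate 1, 0.63 without control replicate 2 and 0.76 without starved replicate 2. The effector difference of -1.5 ranged from -2.5 without control replicate 1 to -0.5 without control replicate 2. That of the other BH3-only genes, 1.0, was 0.5 at a fold of at least 4 and at a score of at least 100, and 0.5 to 1.5 without 1 library. Assignment by exon overlap changed no member value. The difference in members with a peak became 0.0 at a score of at least 100, and ranged from 0.0 (without control replicate 2) to 1.0 (without control replicate 1) as libraries were left out. The difference in effector peaks became 0.0 at a fold of at least 4. Regions seen in both starved libraries alone were 1 of 32 with an overlap of at least 50% of the shorter peak. They were 7 of 29 when 1 library sufficed. Under these rules the other apoptosis genes had 0 of 87 and 18 of 83. Over all regions the shares were 3.10% and 29.9%. Regions seen in both control libraries alone were 13 of 29 when 1 library sufficed, beside 33.6% of all regions. For the other apoptosis genes they were 30 under that rule, 2 with equal list lengths and 3 at a fold of at least 4. Their regions numbered 83, 78 and 78, and the shares of all regions were 33.6%, 3.57% and 4.01%. These alternatives of the other apoptosis genes, and the left-out libraries for motif and position, were chosen after seeing the data.

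Leaving out a library loosens each pattern by construction. The member regions of starved libraries alone then ranged from 4 to 7 (7 without starved replicate 1), and those of control libraries alone from 3 to 9 (6 without control replicate 2, 9 without control replicate 1). For the other apoptosis genes the ranges were 5 to 10 and 8 to 20. The totals were then 22 to 29 member regions and 68 to 77 regions of the other apoptosis genes. Over all regions the shares ranged from 6.85% to 19.9% and from 7.97% to 22.4%. Regions in all remaining libraries with starved values above control ranged from 0 to 1, and those below from 0 to 2. The mean share of member peaks near the stop codon, 3.71%, ranged from 2.38% to 4.95%, and was 10.2% within 200 nt of it. The mean share with GGAC, 83.4%, ranged from 80.2% to 85.5%, and was 47.3% in 100 nt.

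The labels share replicate numbers. Over 2257 regions, deviations of same-numbered libraries had a correlation of -0.0173, so the numbers were not taken as pairs. With the replicate block every difference kept its value, for example 1.5 Bmf peaks and -3.5 prosurvival peaks, and the sign-flip p was 0.5 for both, the smallest that 2 pairs allow. Depth is unknown, so peaks that were not called set no limit on m6A.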
